A study of Danio rerio with 4 samples.

Results

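The synaptotagmin and SNARE exocytosis genes are 53 of the 18105 genes in a deposited table of RNA-seq values from sorted adult zebrafish (Danio rerio) heart muscle cells. They are every gene whose symbol begins with syt or stx and a digit, sytl, stxbp, vamp, snap and a digit, nsf or doc2. This name rule was set with earlier results of these data known. Of the 53 genes, 28 had a mean normalized value of at least 10 over the 4 libraries and were tested. The other 25 lay under that minimum. Cells labelled as ventricular cardiomyocytes were sorted by fluorescence. The tp1:EGFP+ group held 2 libraries of cells carrying both tp1:EGFP, a reporter of Notch activity, and myl7:DsRed2-NLS, a nuclear red reporter under a cardiomyocyte promoter, from 2000 sorted cells per the design text. The myl7:EGFP+ group held 2 libraries of cells marked by EGFP under the same cardiomyocyte promoter, from 7000 sorted cells. The groups therefore differ in transgenes and in number of cells as well as in reporter activity, and cells with tp1 activity may be present in the myl7:EGFP+ sort. No treatment is stated for either group, and the labels do not say whether replicates came from separate fish, so p-values measure the spread between these libraries.

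SNARE proteins drive membrane fusion. A vesicle SNARE of the VAMP family pairs with syntaxin and SNAP25-type SNAREs on the target membrane, and the bundle they form pulls the membranes together. Sec1/Munc18 proteins, several of which are named stxbp, bind syntaxins and guide assembly, tomosyns hold syntaxins in inactive complexes, and the ATPase NSF takes spent bundles apart. Synaptotagmins are vesicle proteins with paired C2 domains, several of which bind calcium and time fusion in neurons and secretory cells. Heart muscle cells use the same machinery to move receptors, transporters and channels to the surface and, mainly in the atrium, to release natriuretic peptides from granules.

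The values are normalized read counts that the authors rounded to whole numbers. In the replicate 2 columns, low values were multiples of 2.98 for tp1:EGFP+ and 3.109 for myl7:EGFP+, the value of 1 read. At up to 150, 98.9% of the 8811 values in tp1:EGFP+ replicate 2 and 100% of the 9832 in myl7:EGFP+ replicate 2 equalled a rounded multiple exactly, which puts both libraries at about 685085 and 685344 reads. Values of 3 in these columns are thus single reads. In the replicate 1 columns single reads are hidden by the rounding, and their depth was not recovered. The columns summed to 1660511 and 2041552 in tp1:EGFP+ and to 1552636 and 2130733 in myl7:EGFP+.

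Among the 28 tested genes, 8 rose and 7 fell in tp1:EGFP+ by limma on log2(value + 1) at a Benjamini-Hochberg adjusted p below 0.05 over all 9921 tested genes, and 13 did not pass. Over all tested genes 34.1% passed, 16.1% higher and 18% lower. The share among the members cannot be read as a feature of the family. A gene with little or no signal in one group enters the test only through the other, and 12 of the 15 called members had a mean under 10 in one group. Among tested genes with a mean of at least 10 in both groups, 3 of 14 members passed, against 20.3% of all such genes. The groups did not overlap in 20 of the 28, against 68.9% of all tested genes. The median log2 difference of the 28 was 0.25, against 0.01 for all tested genes. Among the synaptotagmin genes, syt13, syt4 and syt7b were listed at 0 in myl7:EGFP+ and syt1a in tp1:EGFP+, as was the tomosyn gene stxbp5a. The plasma membrane syntaxin gene stx4 and 3 genes of syntaxin-binding proteins fell, while snap23.1, snap25b, the NSF gene nsfb and the syntaxin genes stx16 and stx5al rose.

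**Figure D1:**
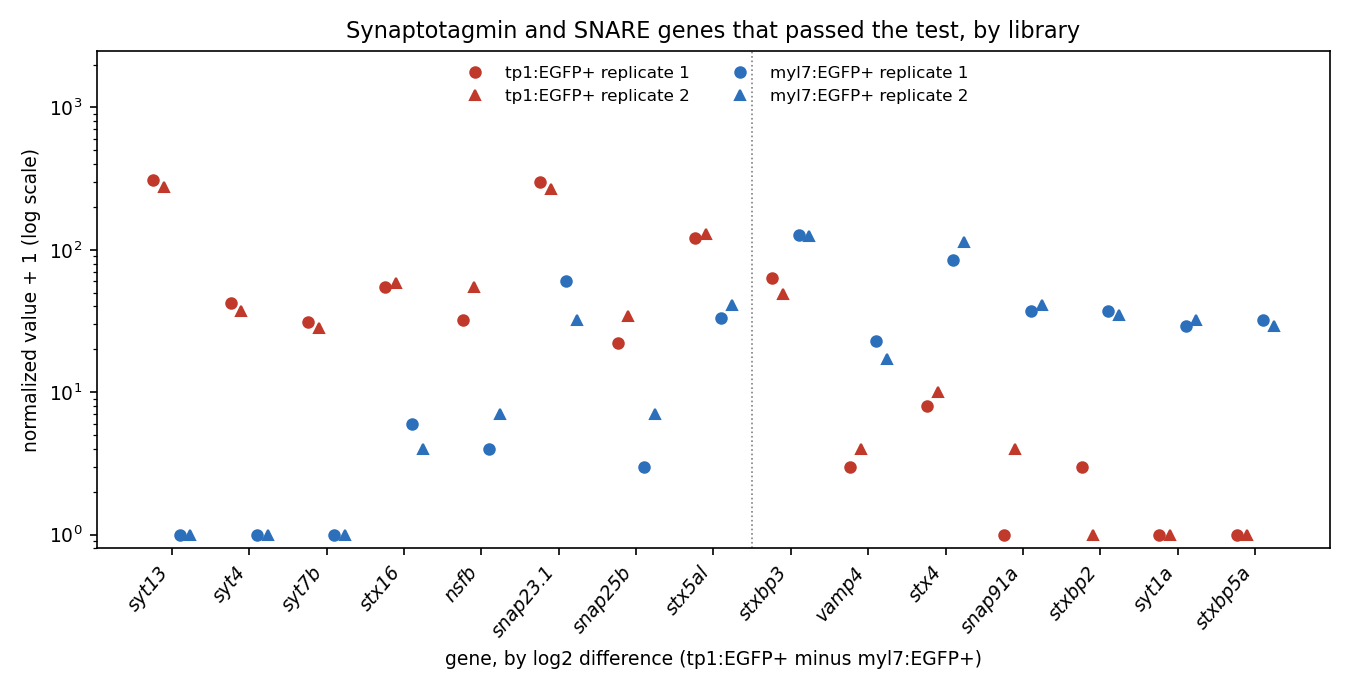
Normalized value plus 1 (log axis) in each library for the 15 genes that passed the test, with tp1:EGFP+ libraries in red at the left of each gene and myl7:EGFP+ libraries in blue at the right. In all 15 genes the groups do not overlap, as passing the test largely requires, and 5 genes are listed at 0 in both libraries of one group. Over all tested genes, the groups do not overlap in 68.9%.

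The synaptotagmin gene syt13 (ENSDARG00000012306, GRCz11 chr7:38685654-38737718, plus strand) had values of 307 and 277 in tp1:EGFP+ and of 0 and 0 in myl7:EGFP+. Its value in tp1:EGFP+ replicate 2 corresponds to about 93 reads. Syt13 is an atypical synaptotagmin without the usual calcium-binding residues, studied in endocrine cells of the mouse pancreas. On the log2(value + 1) scale the difference was 8.19 ± 0.44 (SE, limma adjusted p = 0.00213, n = 2 libraries a group). A difference against 0 depends on the pseudocount and is not a fold change. Genes of general traffic steps, such as vps18 and bet1, were also at or near 0 in one group, so a 0 is reported here only as the listed value, and whether such zeros come from the authors' processing was not tested.

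The genes syt4 and syt7b followed the same pattern, with lower listed values. The values of syt4 (ENSDARG00000036505, chr7:23907692-23916118) were 41 and 36 in tp1:EGFP+, with 0 in both myl7:EGFP+ libraries (log2 5.30 ± 0.39 SE, limma adjusted p = 0.00213). In mammals Syt4 is found on dense-core vesicles and its first C2 domain does not bind calcium. The values of syt7b (ENSDARG00000078060, chr7:13039426-13338283) were 30 and 27 in tp1:EGFP+, with 0 in both myl7:EGFP+ libraries (log2 4.88 ± 0.37 SE, limma adjusted p = 0.00213). Mammalian Syt7 is a calcium sensor of high affinity for slow release and for lysosome exocytosis. In tp1:EGFP+ replicate 2 the values of these genes amounted to about 12 reads for syt4 and 9 for syt7b. All 3 of these genes lie on chromosome 7, where 16% of the 531 tested genes rose, a share close to the 16.1% over all chromosomes.

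The gene syt1a (ENSDARG00000030614, chr4:21129752-21315399), whose mammalian counterpart is the calcium sensor of fast transmitter release, showed the opposite pattern. Its values were 0 and 0 in tp1:EGFP+ and 28 and 31 in myl7:EGFP+, about 10 reads in replicate 2 (log2 -4.93 ± 0.38 SE, limma adjusted p = 0.00213). All 4 synaptotagmins that reached the test did so through 1 group alone and had to differ, so nothing is read from their number, nor from the 5.79% of all tested genes that were called and listed at 0 in both libraries of a group.

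The remaining 8 synaptotagmin and Doc2 genes lay under the minimum. The value of syt6a was 0 in both tp1:EGFP+ libraries and 19 and 6 in myl7:EGFP+, that of syt11a was 0 and 0 against 9 and 0, and that of syt2a was 1 and 3 against 5 and 0. The genes syt15, syt1b and doc2b had at most 4 in any library, and syt11b and doc2d were listed at 0 in all 4. Of the synaptotagmin-like genes, which encode Rab27-binding granule tethers in mammals, sytl2a had 10 and 18 in tp1:EGFP+ and 11 and 3 in myl7:EGFP+ and did not pass. The related sytl2b had 4 and 3 against 0 and 0, and sytl4 had 0 and 0 against 8 and 6, both under the minimum. With no filter on low values, the untested members syt6a, sytl2b, sytl4 and stx17 also passed, where 4211 of 16374 genes passed in all. Each was at 0 in both libraries of 1 group. In replicate 2 of the other group, sytl2b and stx17 had about 1 read and syt6a and sytl4 about 2. Nothing is read from these calls.

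**Figure D2:**
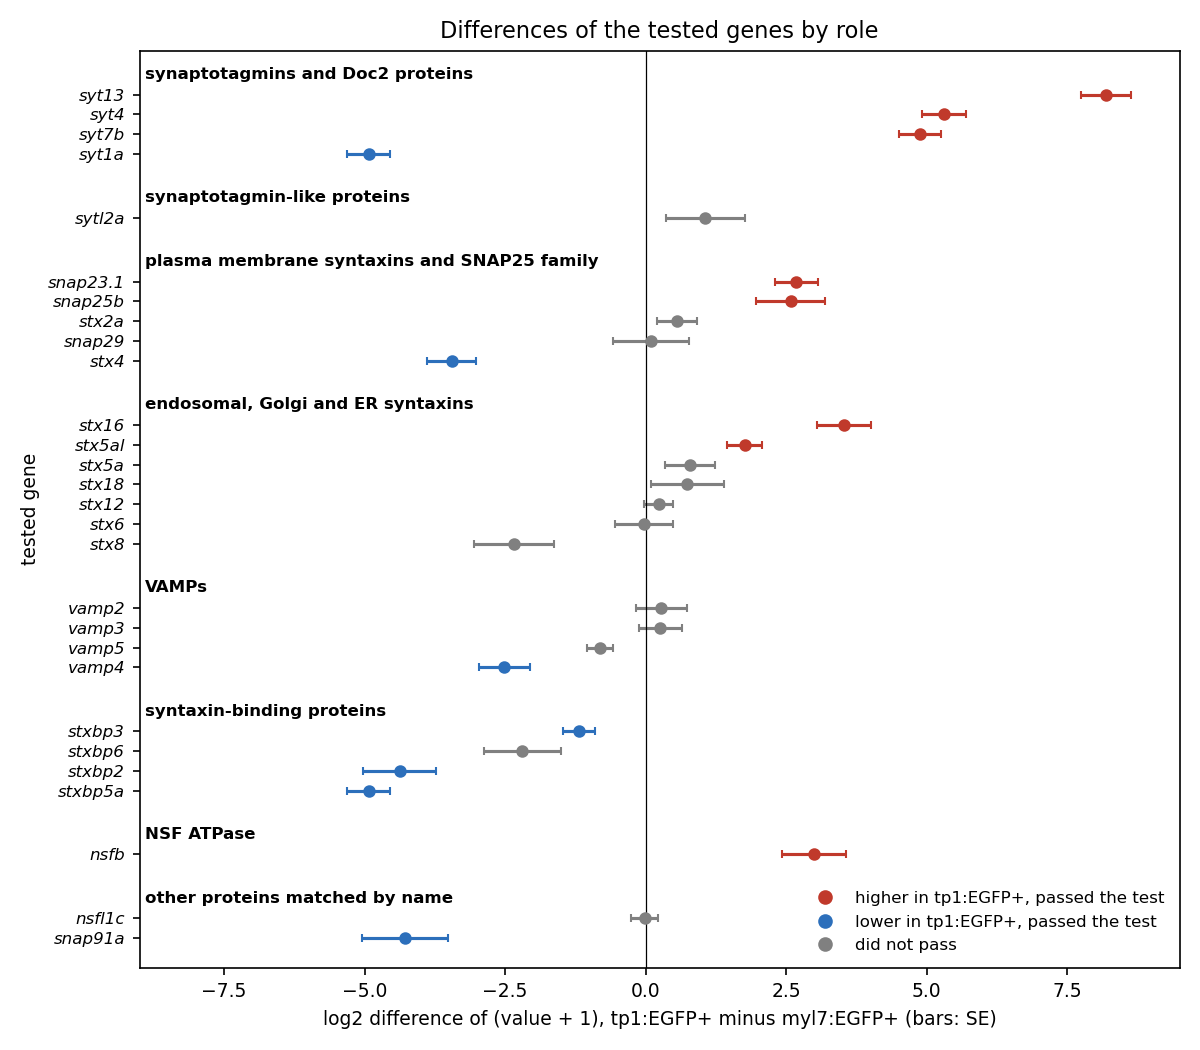
Log2 difference of value plus 1 (tp1:EGFP+ minus myl7:EGFP+, x axis) with its SE for the 28 tested genes, grouped down the page by the role of the protein. The values run from 8.19 for syt13 to -4.93 for syt1a and stxbp5a, and none of the 4 tested syntaxin-binding genes lies above 0. Nothing is read from the latter, since stxbp2, stxbp5a and stxbp6 had a mean under 10 in tp1:EGFP+ and reached the test through myl7:EGFP+.

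Among the genes of plasma membrane syntaxins and the SNAP25 family, called ones went in both directions. The gene stx4 (ENSDARG00000052518, chr12:20627164-20642019) encodes the syntaxin that serves insertion of glucose transporter vesicles in mammalian muscle and fat. Its values were 7 and 9 in tp1:EGFP+ and 84 and 112 in myl7:EGFP+, a log2 difference of -3.45 ± 0.43 (SE, limma adjusted p = 0.00555). The gene snap23.1 (ENSDARG00000012874, chr17:33415319-33433097) encodes the widely expressed SNAP25 relative that pairs with syntaxin 4 in mammals. It had 296 and 265 in tp1:EGFP+ and 59 and 31 in myl7:EGFP+, means of 280.5 ± 21.9 and 45.0 ± 19.8 (SD, n = 2; log2 2.68 ± 0.38 SE, limma adjusted p = 0.00758). Both tp1:EGFP+ libraries were lower than both myl7:EGFP+ libraries for stx4 and higher for snap23.1. With a mean of 8 in tp1:EGFP+, stx4 reached the test through myl7:EGFP+ alone and had to be lower. Groups did not overlap in 68.9% of all tested genes, so nothing is read from the opposite directions of these partner genes.

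A second copy, snap23.2, starts 468 bases past the end of snap23.1 on the same strand and had 0 and 3 in tp1:EGFP+ and 0 in both myl7:EGFP+ libraries. How the authors' counting treated reads shared between the copies is not given, so their values are uncertain. The neuronal form snap25b had 21 and 33 in tp1:EGFP+ and 2 and 6 in myl7:EGFP+ (log2 2.58 ± 0.62 SE, limma adjusted p = 0.0322). With a mean under 10 in myl7:EGFP+, snap25b reached the test through tp1:EGFP+ alone and had to be higher. For stx2a the values were 50 and 54 against 33 and 37, and the groups did not overlap, but the difference of 0.56 ± 0.35 did not pass (limma adjusted p = 0.28). The values of snap29 were 22 and 12 against 25 and 9, while stx3a (2 and 3 against 6 and 9), snap47 (1 and 0 in each group) and stx11a (0 in all 4 libraries) were not tested. A further row spelled STX3 was in capitals and so outside the name rule. It had 25 and 21 in tp1:EGFP+ and 4 and 6 in myl7:EGFP+ and passed (limma adjusted p = 0.0295). With a mean of 5 in myl7:EGFP+, STX3 also reached the test through tp1:EGFP+ alone and had to be higher.

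The genes of syntaxin-binding proteins that passed were lower in tp1:EGFP+ (3 of 4 tested lower, 0 higher). Over all tested genes, 18% passed lower and 16.1% higher. Because stxbp2 and stxbp5a reached the test through myl7:EGFP+ alone, they had to be lower, and nothing is read from the count. The gene stxbp3 encodes Munc18c, the partner of syntaxin 4 in mammals. It had 62 and 48 in tp1:EGFP+ and 126 and 124 in myl7:EGFP+ (log2 -1.18 ± 0.29 SE, limma adjusted p = 0.0337). The gene stxbp2 encodes Munc18-2, known from granule release in human blood cells, and had 2 and 0 against 36 and 34 (log2 -4.38 ± 0.65 SE, limma adjusted p = 0.00877). The tomosyn gene stxbp5a (ENSDARG00000002656, chr20:31745949-31905968) had 0 and 0 in tp1:EGFP+ and 31 and 28 in myl7:EGFP+ (log2 -4.93 ± 0.38 SE, limma adjusted p = 0.00213).

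The fourth tested gene of this class, the amisyn gene stxbp6, had 10 and 3 in tp1:EGFP+ and 39 and 22 in myl7:EGFP+ and did not pass (limma adjusted p = 0.0664). The other tomosyn genes were near 0, with 7 and 0 against 0 and 0 for stxbp5b and 0 and 0 against 4 and 0 for stxbp5l. The amisyn copy stxbp6l had 1 and 0 in each group. The neuronal Munc18 gene stxbp1a was listed at 0 in all 4 libraries.

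Among the vesicle SNARE genes, those with the highest listed values did not pass. The cellubrevin gene vamp3 had 614 and 864 in tp1:EGFP+ and 481 and 765 in myl7:EGFP+, with a log2 difference of 0.26 ± 0.39 (SE, limma adjusted p = 0.649). The gene vamp5, whose mammalian counterpart is enriched in muscle, had 208 and 215 in tp1:EGFP+ and 351 and 398 in myl7:EGFP+. Its groups did not overlap, and the difference of -0.82 ± 0.23 fell just short of the threshold (limma adjusted p = 0.0506). On chromosome 5, vamp8 lies 17885 bases from vamp5, with 1 other listed gene between, and had 1 and 0 against 3 and 3. For vamp2 the values were 19 and 27 against 18 and 19 (log2 0.28 ± 0.46 SE), and for vamp1 they were 4 and 9 against 1 and 0. The gene vamp4, the vesicle SNARE of the trans-Golgi network, was the only VAMP gene that passed, with 2 and 3 in tp1:EGFP+ and 22 and 16 in myl7:EGFP+ (log2 -2.51 ± 0.45 SE, limma adjusted p = 0.0149). With a mean under 10 in tp1:EGFP+, vamp4 reached the test through myl7:EGFP+ alone and had to be lower. Over all tested genes 34.1% passed, and nothing is read from the count of VAMP genes.

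Of the syntaxins of inner membranes, 2 of 7 tested rose and 0 fell. Over all tested genes 16.1% rose and 18% fell, and stx16 reached the test through tp1:EGFP+ alone, so nothing is read from the count. The gene stx16, a syntaxin of the trans-Golgi network and partner of VAMP4 in mammals, had 54 and 57 in tp1:EGFP+ and 5 and 3 in myl7:EGFP+ (log2 3.53 ± 0.48 SE, limma adjusted p = 0.00685). The gene stx5al, a copy of the syntaxin of traffic into and within the Golgi, had 119 and 128 against 32 and 40 (log2 1.76 ± 0.31 SE, limma adjusted p = 0.0134). For its paralog stx5a the values were 28 and 36 against 17 and 19, which missed the threshold (limma adjusted p = 0.227).

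For stx6 and stx18 the values moved with the replicate number. The value of stx6 was 191 and 95 in tp1:EGFP+ and 199 and 96 in myl7:EGFP+, and replicate 2 was the lower one in both groups (log2 -0.04 ± 0.52 SE). That of the ER syntaxin gene stx18 was 71 and 164 against 39 and 106, with replicate 2 the higher one in both groups. Within replicate 1 the stx18 difference was 0.85 on the log2 scale and within replicate 2 it was 0.62. For stx12 the values were 161 and 146 against 148 and 115 (log2 0.23 ± 0.26 SE, limma adjusted p = 0.541). The late endosomal gene stx8 had 24 and 6 in tp1:EGFP+ and 67 and 65 in myl7:EGFP+ and did not pass (log2 -2.34 ± 0.71 SE, limma adjusted p = 0.0607). The genes stx7l (4 and 3 against 13 and 9), stx10 (11 and 9 against 4 and 9) and stx17 (0 and 0 against 3 and 3) were under the minimum, and stx12l was listed at 0 throughout.

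The disassembly ATPase gene nsfb rose, with 31 and 54 in tp1:EGFP+ and 3 and 6 in myl7:EGFP+ (log2 2.99 ± 0.57 SE, limma adjusted p = 0.0171). With a mean under 10 in myl7:EGFP+, nsfb reached the test through tp1:EGFP+ alone and had to be higher. Its adaptor gene napab, which encodes an alpha-SNAP and is not matched by the name rule, was at 399 and 536 against 333 and 466 and missed the threshold (limma adjusted p = 0.626). The name rule also caught nsfl1c, snap91a and snap91b, whose proteins are neither SNAREs nor in the other classes above. The gene nsfl1c, for a cofactor of the ATPase p97, had 244 and 283 in tp1:EGFP+ and 259 and 274 in myl7:EGFP+ (log2 -0.02 ± 0.23 SE, limma adjusted p = 0.961). The gene snap91a, for a clathrin adaptor, fell to 0 and 3 in tp1:EGFP+, against 36 and 40 in myl7:EGFP+ (log2 -4.28 ± 0.77 SE, limma adjusted p = 0.0144), and snap91b had at most 1. With a mean under 10 in tp1:EGFP+, snap91a reached the test through myl7:EGFP+ alone and had to be lower. Without these 3 genes, 8 of 26 tested members rose and 6 fell, or 53.8%, against 34.1% of all tested genes. Of the 15 called members, 12 had a mean under 10 in 1 group, so this share is not read as a feature of the family.

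**Figure D3:**
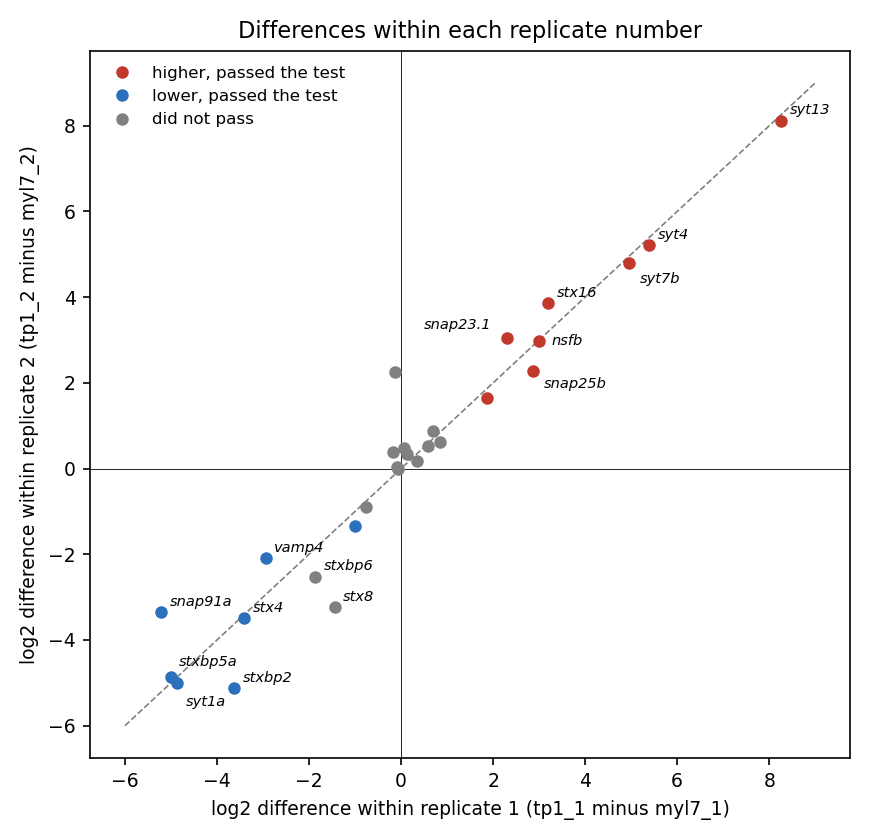
Log2 difference within replicate 1 (x axis) against that within replicate 2 (y axis) for the 28 tested genes, each point a gene and the dashed line equality. All 15 called genes have the same sign in both, as passing the test largely requires, and stx8 lies at -1.44 and -3.24.

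The calls rested on few libraries. With 1 library left out, 6 members passed without tp1:EGFP+ replicate 1, 6 without tp1:EGFP+ replicate 2, 4 without myl7:EGFP+ replicate 1 and 5 without myl7:EGFP+ replicate 2. Calls over all tested genes were then 627, 401, 423 and 434, against 3382 with all libraries. The genes syt13, syt7b, syt1a and stxbp5a passed in each of these fits, and syt4 in all except the one without myl7:EGFP+ replicate 1. These are the 5 called members listed at 0 in both libraries of 1 group, and they entered the test through the other group. Their zeros show no spread, so nothing is read from their keeping the call. The groups of all 15 called members did not overlap, so leaving out 1 library could not change a sign. The other 10 called members lost their call in at least 3 of the 4, with the sign kept.

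Other genes of vesicle traffic were taken from 9 lists of 140 symbols, 96 rows of which were in the table and 62 tested. In these lists 8 genes rose and 11 fell, or 30.6%, near the 34.1% of all genes. Over all tested genes 16.1% rose and 18% fell. Several called genes of these lists had a mean under 10 in 1 group and could go only 1 way. Nothing is therefore read from the counts by list given here and below. Among 11 other SNAREs, 3 rose and 1 fell. The Golgi SNARE genes bet1 (25 and 27 against 0 and 0) and ykt6 (48 and 36 against 1 and 3) rose, as did vti1a (55 and 66 against 20 and 19), a partner of syntaxins 6 and 16. The gene vti1b, a partner of syntaxin 8, fell to 1 and 0 in tp1:EGFP+, against 21 and 31 in myl7:EGFP+. For the 7 tested docking and priming factors, 1 rose and 2 fell. The active zone gene rims2a had 31 and 48 in tp1:EGFP+ against 0 and 0, the bassoon gene bsnb had 0 and 0 against 21 and 34, and cadpsb, for a priming factor of dense-core vesicles, had 8 and 18 against 201 and 190 (limma adjusted p = 0.00213, 0.00232 and 0.00502).

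Of 11 exocytic Rab genes, 2 rose and 2 fell. The recycling Rab genes rab11bb and rab35b rose, with 45 and 60 in tp1:EGFP+ against 1 and 0 in myl7:EGFP+, and 101 and 143 against 21 and 25. The genes rab8a and rab3aa fell, with 1 and 3 against 14 and 22, and 0 and 3 against 36 and 22. Among these called Rab genes only rab35b had a mean of at least 10 in both groups. Of 5 genes for ferlins and extended synaptotagmins, which also carry C2 domains, 0 rose and 2 fell. The otoferlin gene otofa had 0 and 0 in tp1:EGFP+ against 46 and 40 in myl7:EGFP+, and esyt2b had 0 and 0 against 18 and 22. Both reached the test through myl7:EGFP+ alone and had to be lower. Over all tested genes 16.1% rose and 18% fell. Of 10 exocyst subunit and related genes, 1 rose, exoc3l4 (87 and 95 against 34 and 31).

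Of 5 genes for vesicle membrane proteins, 1 rose and 2 fell. The gene sypl2b, for a synaptophysin-like protein, had 130 and 107 in tp1:EGFP+ against 44 and 34 in myl7:EGFP+. The synaptogyrin gene syngr2b had 0 and 0 against 104 and 50, and slc18a2, the vesicular monoamine transporter gene, had 16 and 21 against 95 and 99. Of 7 endosomal tether genes, 0 rose and 2 fell. The gene vps18, for a core subunit of both tethers, had 1 and 0 in tp1:EGFP+ against 164 and 115 in myl7:EGFP+, and the CORVET subunit gene tgfbrap1 had 1 and 0 against 27 and 25. These genes, too, reached the test through myl7:EGFP+ alone and had to be lower. Over all tested genes 16.1% rose and 18% fell. Of the SNAP adaptor genes, napga had 11 and 30 in tp1:EGFP+ against 38 and 19 in myl7:EGFP+. Of 4 other Sec1/Munc18 genes and 2 SNAP adaptor genes, 0 passed by limma. Of these Sec1/Munc18 genes, the highest mean values were those of scfd1 (106 and 215 against 110 and 208) and vps45 (51 and 48 against 59 and 50).

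**Figure D4:**
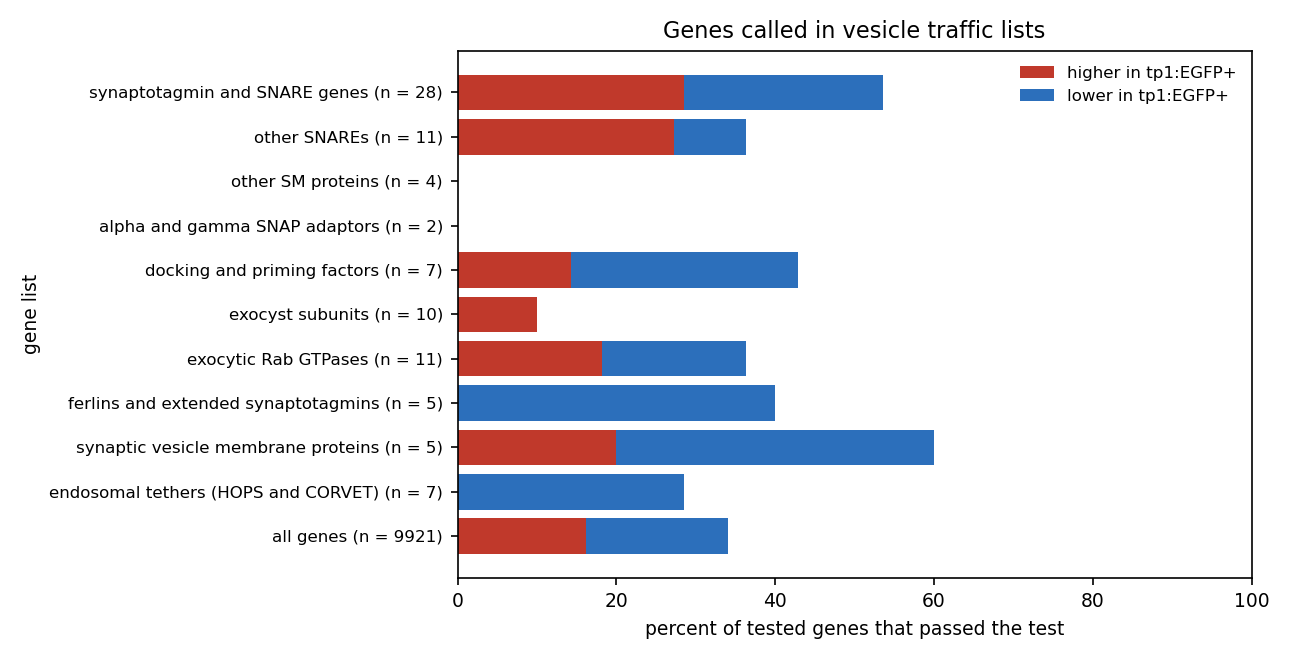
Percent of tested genes that passed the test, higher (red) and lower (blue) in tp1:EGFP+, for the synaptotagmin and SNARE genes, the 9 other vesicle traffic lists and all genes. The bar for synaptotagmin and SNARE genes reaches 53.6% and that for all genes 34.1%, and 4 of the 9 lists have 5 or fewer tested genes. The gap between these bars is not read as a feature of the family. Of the 15 called members, 12 had a mean under 10 in a single group. Among tested genes with a mean of at least 10 in both groups, 3 of 14 members passed, against 20.3% of all such genes.

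The table's own pathway labels mostly cover genes already given above, so they are no independent view. Of 35 genes with the KEGG term for SNARE interactions in vesicular transport, 22 are members. Of the other 13, 12 were tested, 4 rose and 1 fell, against 16.1% higher and 18% lower over all tested genes. Those that rose were bet1, ykt6, vti1a and STX3, and vti1b fell, all given above. Of these called genes, bet1, ykt6, STX3 and vti1b had a mean under 10 in 1 group and could go only 1 way. Nothing is therefore read from the counts for this term. Among these 13, sybl1, the VAMP7 gene, had 84 and 83 in tp1:EGFP+ and 112 and 78 in myl7:EGFP+ and did not pass (limma adjusted p = 0.73).

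Markers of other cells that use regulated exocytosis were counted beside these values. Of 11 neuronal markers in the table, 4 and 2 were above 0 in the tp1:EGFP+ libraries and 6 and 5 in myl7:EGFP+. Their summed values were 284 and 426 in tp1:EGFP+ and 155 and 176 in myl7:EGFP+, mostly from uchl1 (279 and 423 against 95 and 149). Against that direction, sncga had 3 and 0 in tp1:EGFP+ and 49 and 9 in myl7:EGFP+. Lower in tp1:EGFP+ as well were phox2a (1 and 0 against 3 and 9) and nefla (0 and 0 against 4 and 6). The gene tubb5 had 0 and 3 against 0 and 0. The sums therefore follow uchl1 and are not read for the list as a whole. The neuronal genes gap43, neflb and chga were listed at 0 in all 4 libraries. The summed values of 8 Schwann and glial markers were 2061 and 2134 against 1548 and 1964, mostly from pmp22b (1676 and 1934 against 1278 and 1809). In that list egr2a fell (29 and 18 against 121 and 62), gfap had 0 and 0 against 7 and 12, and sox10 had 22 and 9 against 0 and 0. The 6 thrombocyte markers summed to 136 and 170 against 32 and 15, where thbs1b rose (134 and 167 against 1 and 0) and f5 fell (0 and 0 against 30 and 12). The 9 leukocyte markers summed to 22 and 45 against 57 and 77, where cd79a rose (19 and 39 against 3 and 0), and cd74b (1 and 0 against 23 and 37) and cxcr4b (2 and 3 against 27 and 31) fell. The leukocyte genes ptprc, coro1a and mpeg1.1 and the thrombocyte gene fermt3b were at 0 in all 4 libraries.

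Markers of mural and smooth muscle cells summed to 2182 and 4049 in tp1:EGFP+ and to 216 and 167 in myl7:EGFP+. Of these 11 markers, 7 of 7 tested rose, against 16.1% of all tested genes, of which 18% fell. Of the 7, myh11a, pdgfrb, cnn1b and kcne4 had a mean under 10 in myl7:EGFP+ and had to be higher. The others, acta2, tagln and notch3, had a mean of at least 10 in both groups. Called genes of the lists below also include ones with a mean under 10 in 1 group, which could go only 1 way. At 0 were myh11a, pdgfrb and rgs5a in myl7:EGFP+, and desmb and foxc1b in tp1:EGFP+. Markers of red blood cells summed to 210 and 415 against 74 and 59 (9 rows, 5 of 8 tested rose). Endothelial and endocardial markers summed to 306 and 186 against 991 and 602 (21 markers, 2 of 15 tested rose and 9 fell, with erg, esama, fli1a, fli1b, plvapb, tek and tie1 at 0 in tp1:EGFP+ and cldn5b and pecam1 at 0 in myl7:EGFP+). Epicardial and fibroblast markers summed to 658 and 834 against 700 and 686 (14 markers, 5 of 10 tested rose and 1 fell). The 1 that fell, clu (53 and 48 against 414 and 395), made up most of the myl7:EGFP+ sums. Among the 5 that rose, sparc had 314 and 498 against 116 and 134. The near-equal sums therefore cannot be read as equal signal across the list. The 22 cardiomyocyte rows held 2.91% and 4.13% of all values in tp1:EGFP+ and 3.29% and 4.64% in myl7:EGFP+, with 0 of 20 tested higher and 3 lower. Several varied widely between replicates, as myl7 did (765 and 3916 against 565 and 4206, log2 0.17 ± 1.27 SE). Equal cardiomyocyte content cannot be read from so few calls. The part of these other cells in the values of the synaptotagmin and SNARE genes was not tested. In such bulk samples, fewer cells of a type and less RNA per cell cannot be told apart.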

How the data were processed

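RNA from 4 libraries, 2 per group, was sequenced after SMART-Seq v4 amplification per the labels' protocols. The submitters' processing notes name the tools DESeq2 1.26.0, featureCounts, STAR 2.6.1d, Subread 1.6.5 and Trimmomatic 0.39, and the builds GRCz11 and danRer11, without the role or settings of any of them or the treatment of strand. As deposited, the values are a score that the authors made by normalizing counts and rounding them to whole numbers, so no count model was fitted. The test was limma 3.58.1 (R 4.3.3) with a mean-variance trend, run on log2(value + 1) for the 9921 genes whose mean reached 10. This scale understates changes of low genes. The fit was checked on simulated data. Python 3.11.15 with pandas 2.3.3, numpy 2.4.6 and scipy 1.17.1 made the tables, and matplotlib 3.10.9 the plots. The members, the gene lists and the tests were chosen with earlier results of these data known. Values are given for all called members and for those with the highest mean in each role. Of each other list, up to 4 called genes with the smallest p are given. Where none was called, the 2 tested genes with the highest mean are given. The genes STX3 and sybl1 and the members under the minimum were named in addition, after their values were seen. All 53 member IDs matched the reference name table, but only 34 of the 53 had the same symbol there, ignoring case. Names and roles given here follow the deposited symbols. No sequences were used here. Values are not divided by transcript length, so levels are not compared between genes. Alternatives were other pseudocounts (0.5 and 10), other filters, scalings and variance settings, a replicate block, and each library left out.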

Additional observations from a re-analysis of the deposited data

How the results depend on the processing

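With the minimum mean raised to 50, 11 members were tested, 3 rose and 2 fell. Of all 5614 genes tested there, 1343 were called, and 3 companion genes rose and 3 fell. Fewer genes were tested there. Companion genes that rose numbered 5 with columns scaled to a common total and 13 after quantile normalization, and the cause was not tested. With 1 library left out, 2 to 3 members rose and 2 to 3 fell, all calls numbered 401 to 627, and 1 to 2 companion genes rose and 2 to 4 fell. These fits have fewer samples, and the lone library of a group is assumed to vary like the other group. The log2 difference then changed sign in uncalled genes: nsfl1c (-0.126 to 0.0869), snap29 (-0.59 to 0.79), stx6 (-0.56 to 0.49), vamp3 (-0.0707 to 0.598), scfd1 (-0.51 to 0.50), napga (-1.22 to 0.15) and napab (-0.0110 to 0.473). No called member changed sign under any of these alternatives. Leaving out 1 library could not change a sign, since the groups of all 15 called members did not overlap, so nothing is read from this. The call of stxbp3 was lost with a common total (limma adjusted p = 0.112) and with no trend, and that of snap25b with no filter, where the median of all genes was -0.19. Calls were gained for vamp5 (pseudocount of 0.5 and quantile normalization), for stx8 and stxbp6 (pseudocount of 10 and quantile normalization), and for stx17, syt6a, sytl2b and sytl4 (no filter). The genes gained with no filter were each at 0 in both libraries of 1 group.

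The replicate numbers are shared between groups, but the labels do not say that they pair the samples. Across 9921 genes, deviations of same-numbered libraries correlated with r = 0.442. With a replicate block, 5721 genes were called in all, 20 companion genes rose and 18 fell, and 19 members passed, including all 15 of the fit without it and also stx18, stx8, stxbp6 and vamp5. Depth limits the low genes, since 1 read is worth about 3 in the replicate 2 columns, and with 2 libraries a group a gene that did not pass can still differ.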
